A study of Mus musculus with 4 samples.

Results

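Iron and heme genes were described in whole kidney of mice without the ubiquitin protease gene Usp2 (Usp2-KO) and of wild-type (WT) littermates. The 10 genes were chosen by name: Alas1, Alas2 and Fech of heme synthesis, the porphyrin-binding protein gene Tspo2, the heme-degrading Hmox1, the iron transport genes Tfrc, Slc11a2 and Slc40a1, the iron regulator Hfe, and the red cell hormone gene Epo. All 10 had 1 row each on the array that the annotation pairs with a single gene symbol, among 19934 genes tested. All animals were male C57BL6/N mice aged 12 weeks, kept for 3 weeks in cycles of 12 h of light and 12 h of darkness and killed at Zeitgeber time 12, when lights go off and Usp2 peaks by the labels. RNA of 6 littermate pairs was combined into 2 WT pools and 2 Usp2-KO pools of 3 mice each, with the littermate pairing kept, here read as pools of the same number, and each pool was measured on 1 array. How the Usp2 allele was made is not given in the sources used here. Since an array reads the average of 3 mice, p-values rest on spread among pools, shared across genes as described below, and not among animals. The 4 arrays set a limit on precision throughout.

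Heme is made in a chain of enzymes that begins and ends in the mitochondrion. The first enzyme, 5-aminolevulinate synthase, exists as a general form (Alas1) and as a form of red cell precursors (Alas2), and the last, ferrochelatase (Fech), inserts iron into protoporphyrin. Cells take up transferrin-bound iron through the transferrin receptor, move it across membranes through the transporter encoded by Slc11a2 and release it through ferroportin, the product of Slc40a1. The kidney recovers filtered iron in its tubules and is the main adult source of erythropoietin, the hormone that drives red cell formation.

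The labels were checked first. The log2 value of Usp2 was 11.63 and 11.71 in the WT pools and 7.65 and 7.60 in the Usp2-KO pools, which matches the genotypes given. Of 10 defining kidney markers 9 were measured, and the lowest log2 value in the rows used was 8.04. It belonged to Nphs1, whose second row read 6.36 to 6.81. The files hold no measure of detection, so these values describe levels and not presence. The medians of the arrays were 7.44 to 7.46. Values are log2 expression made by the authors with RMA, a difference is always Usp2-KO minus WT, and "passed" means a p-value adjusted by Benjamini-Hochberg over all 19934 genes of under 0.05 in limma. In limma the spread of each gene is drawn towards that of all genes, here with a prior of 6.87 of 8.87 total degrees of freedom. Each SE, interval and p from it thus rests mostly on the shared spread and not on the gene's own pools. A level on this scale cannot be set against that of another gene, because each row has its own probes.

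Without Usp2, 5 of the 10 iron and heme genes had a higher and 5 a lower mean, with a median difference of 0.02, and none passed. Alas2 was the lowest, at -0.38, and Tspo2 the highest, at 0.18. In the whole comparison 1 gene passed, Usp2 itself, which is 0.00502% of the genes tested. At an unadjusted p under 0.05 in limma the 10 genes held 2, where all genes gave 1815, or 9.11%. These were Alas2, where 3.88% of all genes were lower at that p, and Tspo2, where 5.22% were higher. The pools of the genotypes did not overlap for 5 of the 10 genes, Alas2, Fech, Tspo2, Slc40a1 and Hfe, against 38.9% of all genes. In a list of 10 genes, counts of 2 and 5 are close to these background shares, and nothing is read from them. The littermate differences had the same sign in both pairs for 6 of the 10 genes, against 51.5% of all genes.

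**Figure D1:**
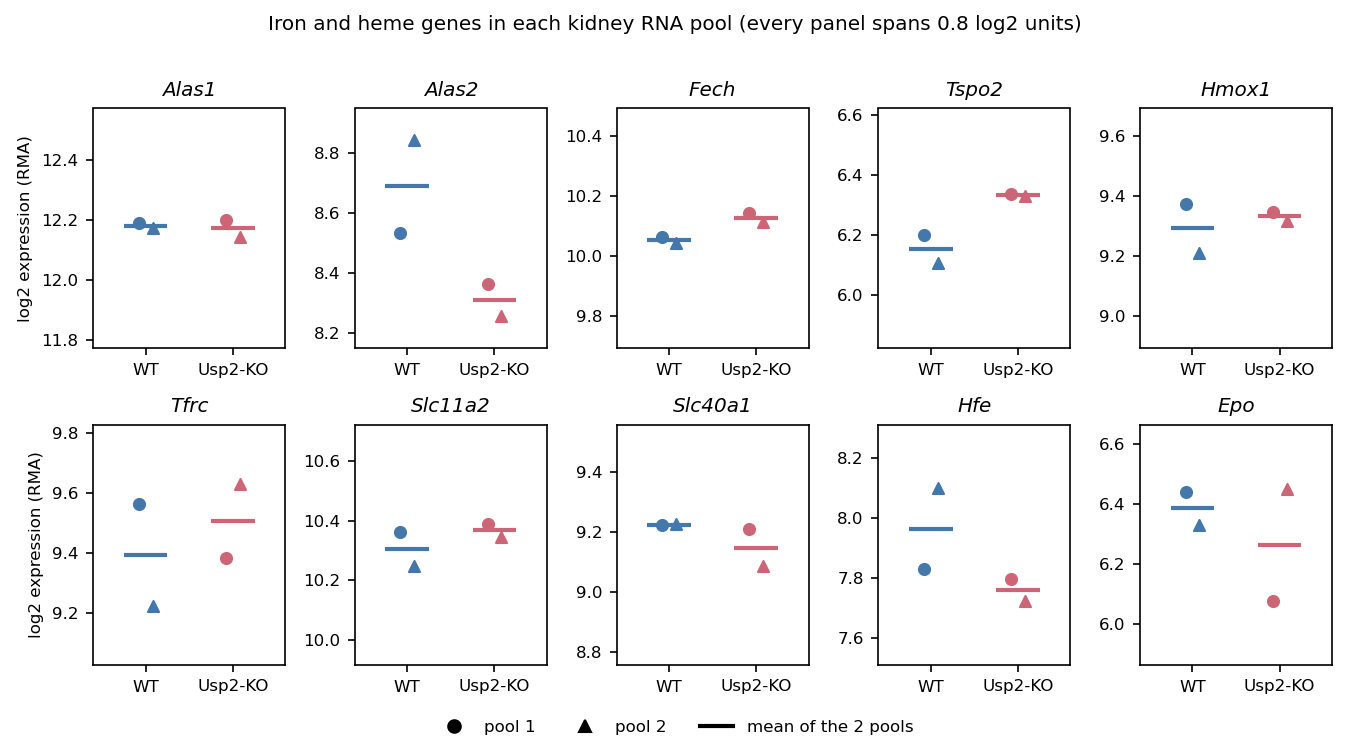
Log2 expression of each gene in the 4 pools, with a circle for pool 1, a triangle for pool 2 and a bar at the mean of both pools, in blue for WT and red for Usp2-KO, on axes that all span 0.8 log2 units. The Alas2 pools of the genotypes are apart (8.25 to 8.36 against 8.53 to 8.84), the Alas1 pools lie almost on each other, and the Tfrc and Epo pools of one genotype lie further apart than the genotype means.

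Alas2, the red cell form of the first enzyme of heme synthesis, had the largest difference of the 10 genes. Its log2 value was 8.53 in WT pool 1, 8.84 in WT pool 2, 8.36 in Usp2-KO pool 1 and 8.25 in Usp2-KO pool 2. Both Usp2-KO pools were thus below both WT pools, and WT pool 2 stood highest. The WT mean was 8.69 ± 0.22 and that of Usp2-KO 8.31 ± 0.08 (SD, n = 2 pools each). Their difference of -0.38 (SE 0.10, 95% confidence interval -0.62 to -0.14), or 1.30-fold lower, had an unadjusted p of 0.00535 in limma and an adjusted p of 0.34. An exact two-sided permutation test of 2 pools against 2 gave p = 0.333, the smallest it can give. In whole kidney RNA, fewer cells that carry a transcript and less of it per cell cannot be told apart.

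The size of the Alas2 difference depended on the pools and on the fit. It was -0.17 between the pool 1 littermates and -0.59 between the pool 2 littermates. Without WT pool 2 it was -0.23, and without WT pool 1 it was -0.53. With the littermate pools as a block, Alas2 passed (limma adjusted p = 0.0264), as did 153 of all genes (0.768%), and it was the only gene that did so among the iron, heme and marker lists described here. When the same paired fit was run over all 28270 rows of the table, 10 rows passed, and Alas2 had an adjusted p of 0.48. The paired fit over genes had a prior of 90.6 degrees of freedom, against 7.96 over all rows, so its spread was shared almost evenly by all genes.

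Alas1 and Fech, the other members of the synthesis chain, differed little between the genotypes. Alas1, the general form of the first enzyme, had log2 values of 12.19 and 12.17 in WT and 12.20 and 12.14 in Usp2-KO pools. Its difference was -0.01 with a 95% confidence interval of -0.17 to 0.15, and the genotypes overlapped. Fech, which adds iron to the porphyrin ring, had 10.06 and 10.04 in WT and 10.14 and 10.11 in Usp2-KO pools. Both Usp2-KO pools were higher than both WT pools, by 0.08 and 0.07 in the littermate pairs. The interval of the mean difference was -0.08 to 0.23 (limma adjusted p = 0.80).

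The enzymes between them were read from a list of 9 synthesis enzymes, of which 8 had a row of their own. In that list 3 genes were higher and 5 lower, with a median difference below 0.01 in size, and none passed. Only Alas2 had an unadjusted p under 0.05 in limma, where 9.11% of all genes did. Coproporphyrinogen oxidase, encoded by Cpox, had the largest difference after Alas2, at 0.19 (10.06 and 9.98 in WT, 10.29 and 10.12 in Usp2-KO pools, limma adjusted p = 0.55). Without Usp2-KO pool 1, its highest, it was 0.097. Uros differed by -0.03 and Urod by 0.02, both enzymes that shape the porphyrin ring. Alad, which joins the first precursors, and Ppox, the enzyme before ferrochelatase, differed by less than 0.01 in size.

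Tspo2 encodes a porphyrin and cholesterol binding protein of the translocator family that is known from maturing red cell precursors, and its difference had the opposite sign to that of Alas2. Its log2 value was 6.20 in WT pool 1, 6.11 in WT pool 2, 6.34 in Usp2-KO pool 1 and 6.33 in Usp2-KO pool 2. The Usp2-KO pools lay within 0.01 of each other and above both WT pools. The difference was 0.18 (SE 0.07, 95% confidence interval 0.01 to 0.34), with an unadjusted p of 0.0366 and an adjusted p of 0.51 in limma. Its relative Tspo, the general family member of the outer mitochondrial membrane, differed by -0.10 (limma adjusted p = 0.72). The files hold no measure of detection, so how much of a low value such as that of Tspo2 is transcript is not known.

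**Figure D2:**
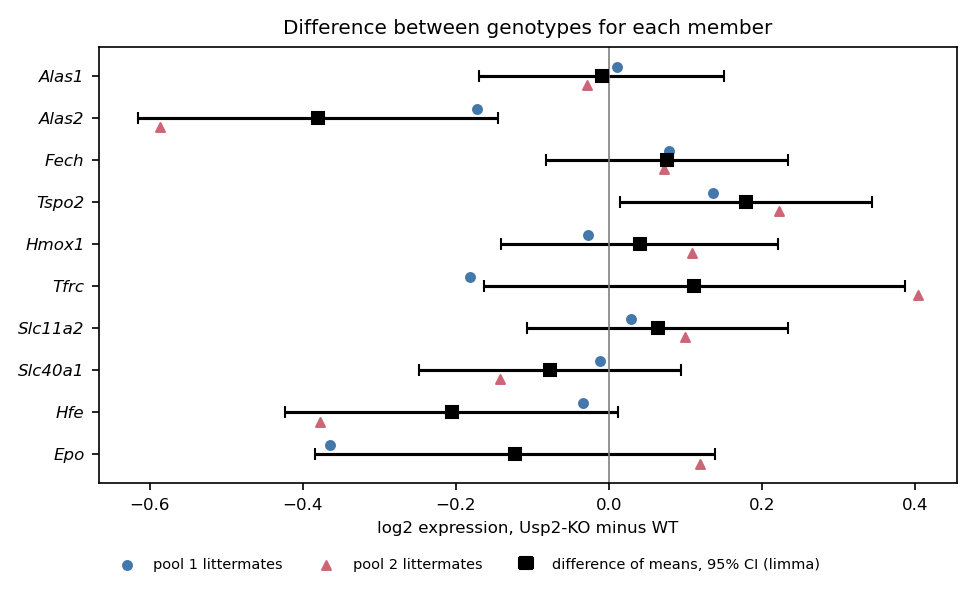
Difference in log2 expression, Usp2-KO minus WT, for each of the 10 genes, as a black square with its 95% confidence interval from limma, a circle for the pool 1 littermates and a triangle for the pool 2 littermates. The intervals of Alas2 (-0.62 to -0.14) and Tspo2 (0.01 to 0.34) leave out 0 before adjustment, and the littermate pairs of Tfrc and Epo lie on opposite sides of 0.

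Because Alas2 and Tspo2 are genes of red cell precursors, other transcripts of these cells were read beside them. Adult red cell precursors and young red cells carry much globin mRNA, and the array has 4 rows that its annotation gives to several adult globin genes at once, 2 to alpha globins and 2 to beta globins, so no single gene can be named from them. They were read in the fit over all 28270 rows, a choice made after the values were seen. All 4 globin rows were lower in Usp2-KO kidney, by -0.48 to -0.37, and in each of them both Usp2-KO pools lay below both WT pools. Of all genes tested, 38.9% had no overlap between the genotypes. The rows of one chain are shared by several globin genes and read nearly alike, with -0.365 and -0.381 for alpha and -0.435 and -0.479 for beta. They are therefore not 4 separate observations. The first alpha globin row had 12.92 and 13.13 in the WT pools and 12.75 and 12.57 in the Usp2-KO pools. The second beta globin row had 12.86 and 13.12 in the WT pools and 12.46 and 12.57 in the Usp2-KO pools. In every globin row, as in Alas2, WT pool 2 was the highest of the 4 pools. Unadjusted p-values were 0.00231 to 0.00789 and adjusted ones 0.46 to 0.47 in limma, where 8.59% of all rows had an unadjusted p under 0.05 and 0.00354% an adjusted one.

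Set against the globin rows of the same array, Alas2 was not lower in Usp2-KO kidney. Its log2 value minus the mean of the 4 globin rows was -4.34 in WT pool 1, -4.27 in WT pool 2, -4.23 in Usp2-KO pool 1 and -4.30 in Usp2-KO pool 2. These values overlapped between the genotypes, and their mean difference was 0.035, against -0.38 for Alas2 alone. The mean of the globin rows itself differed by -0.415, so subtracting it raised the difference of every gene by the same amount. The 0.035 of Alas2 thus only states that its own difference was close to that of the globin rows. Likewise, the order of the genes after subtraction restates the order of their own differences. Alas1 minus the globin rows was -0.68 and -0.94 in WT and -0.39 and -0.41 in Usp2-KO pools. Hfe minus the globin rows had a difference of 0.21, with -5.04 and -5.01 in WT and -4.80 and -4.84 in Usp2-KO pools. For Tspo2 the same quantity was -6.67 and -7.00 in WT and -6.26 and -6.23 in Usp2-KO pools. The subtraction was chosen after the values were seen and has no test across genes.

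**Figure D3:**
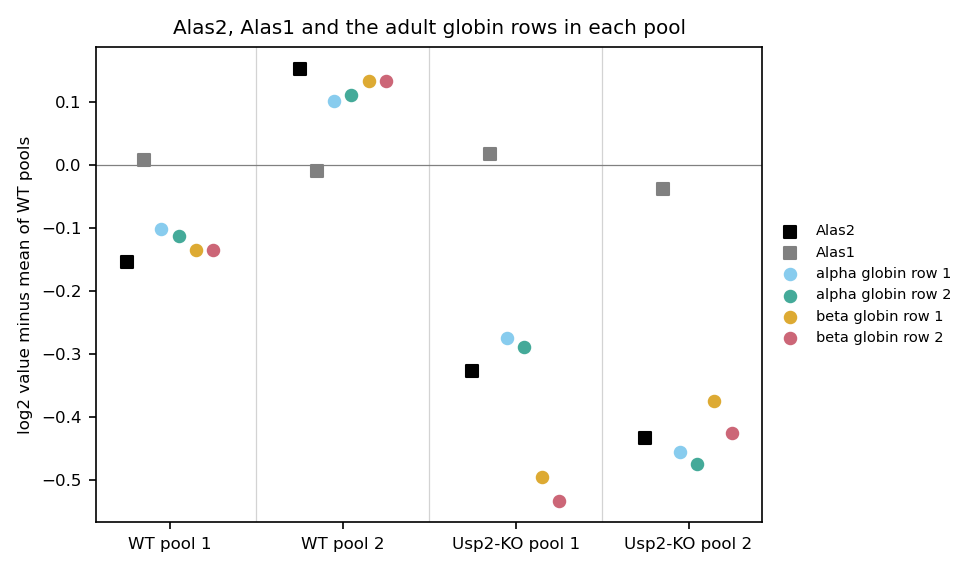
Log2 value minus the mean of the WT pools of the same row, for Alas2 (black squares), Alas1 (grey squares) and the 4 adult globin rows (circles), in each of the 4 pools. Alas2 and the globin rows are highest in WT pool 2 and lowest in the Usp2-KO pools, while Alas1 stays near 0 in all 4 pools.

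Other red cell genes were less uniform. Of 24 markers of red cells and their precursors on a list, 15 had a row of their own, the adult globins not being among them. Of these 15, 4 were higher and 11 lower with a median of -0.015, beside a median of -0.006 and 52.4% lower over all genes tested. An unadjusted p under 0.05 in limma was seen for 3, Alas2, Tspo2 and Ermap, against 9.11% of all genes. Ermap, an erythroid membrane protein, differed by -0.18 (limma adjusted p = 0.50), and Nfe2, a transcription factor of red cell and platelet precursors, by -0.19 (limma adjusted p = 0.57). Bpgm, the enzyme that makes the red cell's oxygen-release metabolite, differed the other way, by 0.17, with 7.31 and 7.41 in WT and 7.58 and 7.47 in Usp2-KO pools (limma adjusted p = 0.57). Trim10, an erythroid gene, also had a higher mean, by 0.09, with overlapping pools. Gata1 and Klf1, the master regulators of the lineage, differed by -0.013 and -0.015, and Slc4a1, which red cells share with acid-secreting kidney cells, by -0.013. Rhag differed by -0.17 at log2 values between 4.05 and 4.35, Rhd by -0.15, Tal1 by -0.11 and Epb42 by -0.08. Values under the array medians were also read for Ermap (6.75 to 6.97), Gata1 (6.57 to 6.78), Trim10 (6.22 to 6.41), Rhd (5.90 to 6.215) and Epb42 (6.04 to 6.17). With no measure of detection, how much of such values is transcript is not known. A difference near 0 in these rows therefore does not show that the transcript was unchanged. Without Alas2 and Tspo2, 3 of the 13 remaining markers were higher and 10 lower. The pools of the genotypes did not overlap for 6 of these 13, against 38.9% of all genes. The mean log2 value of the 13 markers was 6.58 and 6.57 in the WT pools and 6.54 and 6.51 in the Usp2-KO pools. Their summed linear level was 1975 to 1985 in the WT and 1914 to 1962 in the Usp2-KO pools, but 39.6% of it came from Slc4a1, so it is no measure of red cell content. Such sums follow the brightest rows of a list, and are given here only to show the range over pools. No marker was at 0, which RMA values do not reach, and the lowest value among them was 4.05. The part of red cell content in the Alas2 difference was not tested.

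The mean of the globin rows correlated over the 4 pools with Alas2 at a Pearson r of 0.985, with Hfe at 0.93 and with Slc40a1 at 0.66. For Epo it was 0.23 and for Alas1 0.15. The other members ran against the globin rows, Tspo2 at -0.996, Fech at -0.935, Slc11a2 at -0.82, Hmox1 at -0.64 and Tfrc at -0.64. Following the globin rows was therefore not seen in Alas2 alone, and 4 pools give these values little weight.

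The starts of the red cell genes Alas2 and Tspo2 and of Alas1, the general counterpart of Alas2, are shown. Promoters of 6 of the 10 genes were found in a RefSeq table of GRCm38.p6, in which Fech, Hmox1, Slc11a2 and Slc40a1 had no entry. The 250 bases before the start are printed 5′ to 3′, for Alas1 before the more downstream of its starts. Capitals mark AGATAA or TGATAA, letters bound by GATA factors, and CACCC, letters bound by erythroid Krüppel-like factors, each on either strand.
Alas2 (chrX:150547167-150547416, plus strand): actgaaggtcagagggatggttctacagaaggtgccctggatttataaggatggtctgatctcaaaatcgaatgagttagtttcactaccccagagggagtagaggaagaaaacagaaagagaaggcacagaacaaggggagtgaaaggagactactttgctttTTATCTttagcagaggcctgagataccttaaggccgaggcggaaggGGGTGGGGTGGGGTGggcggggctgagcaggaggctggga
Alas1 (chr9:106247731-106247980, minus strand): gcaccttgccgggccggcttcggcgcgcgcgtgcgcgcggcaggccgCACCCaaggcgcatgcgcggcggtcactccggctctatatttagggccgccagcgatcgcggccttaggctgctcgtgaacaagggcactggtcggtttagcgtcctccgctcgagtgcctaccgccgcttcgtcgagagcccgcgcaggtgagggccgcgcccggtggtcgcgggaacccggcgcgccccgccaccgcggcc
Tspo2 (chr17:48451502-48451751, minus strand): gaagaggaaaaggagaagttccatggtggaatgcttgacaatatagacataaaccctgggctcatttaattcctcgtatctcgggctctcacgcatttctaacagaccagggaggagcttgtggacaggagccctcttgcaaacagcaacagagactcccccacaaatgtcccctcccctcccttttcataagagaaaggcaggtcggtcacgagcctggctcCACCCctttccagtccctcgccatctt
Alas2 holds 1 AGATAA on the opposite strand, 86 bases before the start, and 3 CACCC in a row on that strand. Neither the Alas1 nor the Tspo2 stretch holds AGATAA or TGATAA, and each holds 1 CACCC. Of all 32851 promoters of the table cut to the same length, 9.99% hold AGATAA, 7.94% TGATAA and 52% CACCC. A match describes these letters and not a site in use.

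Hmox1 encodes heme oxygenase, which opens the heme ring and frees its iron, and it is induced by heme and oxidative stress. Its log2 value was 9.37 and 9.21 in the WT pools and 9.35 and 9.32 in the Usp2-KO pools. Both Usp2-KO pools lay between the WT pools, and the difference was 0.04 (95% confidence interval -0.14 to 0.22, limma adjusted p = 0.92). Of the 14 genes of heme transport, binding and breakdown, all measured, 9 were higher and 5 lower with a median of 0.02. None passed or had an unadjusted p under 0.05 in limma, where 9.11% of all genes had such a p. Pgrmc1, a heme-binding membrane protein, differed by 0.16, and Flvcr1, a heme exporter, by 0.15 in the row used and by 0.09 in its second row. Hpx, the plasma heme carrier hemopexin, differed by -0.20, though by -0.42 and 0.015 in the littermate pairs. Abcg2, an exporter that also carries porphyrins, differed by 0.10 with the WT pools at 11.09 each and the Usp2-KO pools at 11.20 and 11.18. The biliverdin reductase genes Blvra and Blvrb each differed by 0.02.

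Tfrc, the transferrin receptor, varied more between pools of one genotype than between the genotypes. Its log2 value was 9.56 in WT pool 1, 9.22 in WT pool 2, 9.38 in Usp2-KO pool 1 and 9.63 in Usp2-KO pool 2. The WT pools were 0.34 apart and the Usp2-KO pools 0.245, both more than the difference of 0.11 (95% confidence interval -0.16 to 0.39, limma adjusted p = 0.84). The littermate pairs went opposite ways, by -0.18 and 0.40. Without WT pool 2 the difference was -0.06, and without Usp2-KO pool 2 it was -0.01.

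Slc11a2 encodes a proton-coupled transporter of ferrous iron, present in kidney tubules. It had 10.36 and 10.25 in the WT pools and 10.39 and 10.35 in the Usp2-KO pools. The genotypes overlapped, with a difference of 0.06 (95% confidence interval -0.11 to 0.23, limma adjusted p = 0.85), and it was 0.007 without WT pool 2 and 0.12 without WT pool 1. On the list of 14 iron uptake genes, all measured, 5 were higher and 9 lower with a median of -0.04, and none passed. An unadjusted p under 0.05 in limma was seen for 2, Lcn2 and Steap3, against 9.11% of all genes. Lcn2, a siderophore-binding protein that also marks tubule injury, had 8.01 and 7.86 in WT and 7.81 and 7.645 in Usp2-KO pools, a difference of -0.21 (unadjusted p = 0.0415 in limma). The ferrireductase genes Steap3 and Steap4 both differed by -0.16 with no overlap between the genotypes, and Trf, the iron carrier transferrin, by -0.12. The adjusted p in limma was 0.53 or more for all genes of this list. Lrp2 and Cubn, the proximal tubule receptors that take up filtered proteins including transferrin, differed by less than 0.04 in size.

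Slc40a1, the gene of the iron exporter ferroportin, was nearly alike in the WT pools, at 9.22 and 9.23, and was 9.21 and 9.09 in the Usp2-KO pools. Both Usp2-KO values were lower, but the first by 0.01 only. The difference was -0.08 (95% confidence interval -0.25 to 0.09, limma adjusted p = 0.82), and it was -0.015 without Usp2-KO pool 2. Of the 9 genes of iron storage, chaperones and export, 5 were higher and 4 lower with a median of 0.02. None passed or had an unadjusted p under 0.05 in limma, where 9.11% of all genes had such a p. The ferritin chain genes Fth1 and Ftl1 differed by less than 0.01 and by -0.03. Ncoa4, the receptor that sends ferritin to breakdown, differed by 0.14 in the row used and by 0.11 in its second row.

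Hfe encodes a membrane protein that binds the transferrin receptor and takes part in iron sensing, and its loss causes iron overload. Its log2 value was 7.83 in WT pool 1, 8.10 in WT pool 2, 7.80 in Usp2-KO pool 1 and 7.72 in Usp2-KO pool 2. The Usp2-KO pools lay just below WT pool 1 and well below WT pool 2, the order also seen in Alas2. The difference was -0.21 (95% confidence interval -0.42 to 0.01, limma adjusted p = 0.57), of which -0.03 was seen in the pool 1 littermates and -0.38 in the pool 2 littermates. Without WT pool 2 it was -0.07. The gap of 0.27 between the WT pools was larger than the difference between the genotypes.

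Of 21 genes of iron sensing and the hepcidin axis, all measured, 10 were higher and 11 lower with a median of -0.02, and none passed. An unadjusted p under 0.05 in limma was seen for 2, Neo1 and Id1, against 9.11% of all genes. Neo1, which encodes the hemojuvelin-binding receptor neogenin, had the smallest p, with 10.82 and 10.78 in WT and 11.06 and 11.08 in Usp2-KO pools. Its difference was 0.27 (SE 0.07), with an unadjusted p of 0.00393 and an adjusted p of 0.33 in limma. Neo1 lies on chromosome 9, as Usp2 does, 206 measured genes away. Id1, a target of bone morphogenetic protein signals, differed by -0.27, by -0.03 and -0.50 in the littermate pairs, with WT pool 2 highest and Usp2-KO pool 2 lowest as in Alas2. The hormone gene Hamp differed by -0.17 at log2 values between 4.22 and 4.53. Aco1 and Ireb2, the iron-regulatory proteins that bind mRNAs of ferritin and the transferrin receptor, differed by 0.01 and 0.09.

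Epo, the erythropoietin gene, is made by a small set of interstitial cells when oxygen is low. Its log2 value was 6.44 in WT pool 1, 6.33 in WT pool 2, 6.08 in Usp2-KO pool 1 and 6.45 in Usp2-KO pool 2. The lowest and the highest value were both from Usp2-KO pools, so the genotypes overlapped. As for Tspo2, these values are low, and how much of them is transcript is not known. The overlap therefore does not show that Epo transcript was unchanged. The difference was -0.12 (95% confidence interval -0.38 to 0.14, limma adjusted p = 0.80), and it was 0.06 without Usp2-KO pool 1. The littermate pairs went opposite ways, by -0.36 and 0.12. The 250 bases before its start are printed as the others above, since the stretch holds a GATA match as that of Alas2 does.
Epo (chr5:137485817-137486066, minus strand, GRCm38.p6): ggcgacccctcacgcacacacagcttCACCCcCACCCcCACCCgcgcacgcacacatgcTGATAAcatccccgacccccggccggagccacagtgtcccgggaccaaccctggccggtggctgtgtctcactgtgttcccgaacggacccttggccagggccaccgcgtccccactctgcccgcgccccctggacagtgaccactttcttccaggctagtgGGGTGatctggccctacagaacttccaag
It holds 1 TGATAA and 4 CACCC. The letters ACGTG, the core bound by hypoxia-inducible factors, and CACGTG, the clock E-box that contains it, were also searched on either strand. They are in 16.6% and 6.02% of all promoters cut to this length, and of the printed stretches none holds either.

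The oxygen-sensing genes around Epo differed little. Of 19 genes on that list, all measured, 13 were higher and 6 lower with a median of 0.04. None passed or had an unadjusted p under 0.05 in limma, where 9.11% of all genes had such a p. Egln1, the main oxygen-sensing hydroxylase, differed by 0.14 with no overlap between the genotypes (limma adjusted p = 0.62). Hif1a differed by 0.12 and Hif3a by 0.12, while Epas1, the factor that drives Epo in kidney, differed by -0.07. Targets of these factors included Bnip3, at 0.10 in the row used and -0.02 in its second row, and Vegfa, at 0.07. The receptor gene Epor differed by -0.03. Among the markers of interstitial fibroblasts and pericytes, 3 of 9 were higher, and Cspg4 had the smallest p, with a difference of -0.18 (unadjusted p = 0.0338 and adjusted p = 0.51 in limma). Their mean log2 value was 9.05 and 9.07 in the WT pools and 9.10 and 8.99 in the Usp2-KO pools. The summed linear level, 21.5% of it from Pdgfrb, was 6976 to 7075 in WT and 6606 to 7105 in Usp2-KO.

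Genes of mitochondrial iron, iron-sulfur clusters and porphyrin transport had small differences. Of 21 on that list, 18 were measured, and 11 were higher and 7 lower with a median of 0.02. None passed, and only Tspo2 had an unadjusted p under 0.05 in limma. In 16 of the 18 the difference was under 0.1 in size, and Tspo2 and Tspo were the others. Over all 19934 genes tested the same held for 13460. The iron importers of the mitochondrion, Slc25a37 and Slc25a28, differed by 0.06 and -0.08. Iscu, the scaffold of iron-sulfur clusters, differed by 0.08 in the row used and by 0.11 in its second row, and Isca2 by 0.09 (limma adjusted p = 0.80 and 0.81). Over all pathway lists together, 103 genes were measured, 56 of them higher and 47 lower, 0 passed and 6 had an unadjusted p under 0.05 in limma, against 9.11% of all genes tested.

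**Figure D4:**
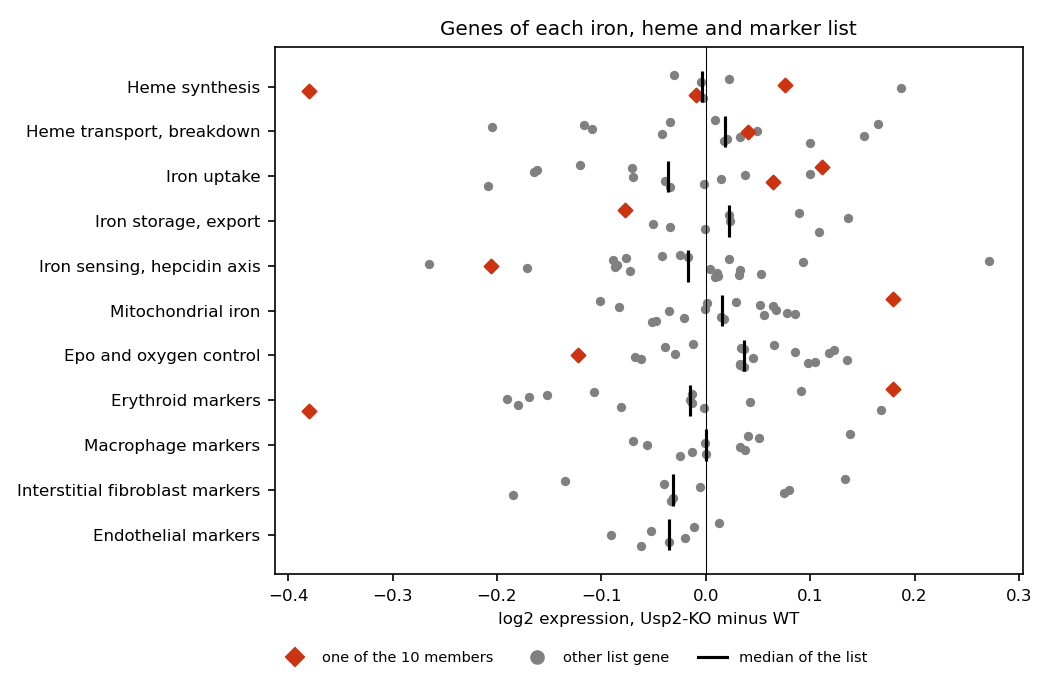
Difference in log2 expression, Usp2-KO minus WT, of every measured gene of 7 iron and heme lists and 4 cell type marker lists, with red diamonds for the 10 chosen genes, grey points for the others and a black line at the median of each list. All list medians lie between -0.04 and 0.04, and Alas2 (-0.38) stands furthest from 0.

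Macrophages, which recycle the iron of red cells, were followed by 11 measured markers, 5 of which were higher and 5 lower with a median of 0. Their differences lay between -0.07 and 0.14 (Vsig4), and their mean log2 value was 7.29 and 7.30 in the WT pools and 7.32 and 7.29 in the Usp2-KO pools. Their summed linear level, 25.5% of it from Csf1r, was 2805 to 2955 in WT and 2793 to 2933 in Usp2-KO. Endothelial markers were lower in 6 of 7, none by more than -0.09 (Kdr), with mean log2 values of 10.24 and 10.33 in the WT and 10.29 and 10.21 in the Usp2-KO pools. Their summed linear level, 27.8% of it from Emcn, was 9367 to 9913 in WT and 9185 to 9658 in Usp2-KO. None of these markers passed in limma.

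The genes whose values over the 4 arrays were most like those of Alas2 were sought among 339 genes with a single-symbol row that spanned at least 0.5 on the log2 scale, so the globin rows were not in the search. They were Trappc4 (Pearson r 0.985), the odorant receptor gene Olfr1239 (0.964) and the pheromone receptor gene Vmn1r86 (0.962). Log2 values were 9.66 to 10.21 for Trappc4, but 5.10 to 5.75 for Olfr1239 and 6.34 to 6.94 for Vmn1r86. The alpha globin rows, with r of 0.980 and 0.983, were closer to Alas2 than both receptor genes, and the beta globin rows had 0.934 and 0.940. Trappc4, a vesicle tethering subunit, lies on chromosome 9, 16 measured genes from Usp2. For Epo the most alike were Npn2 (0.998), Retnla (0.992) and the microRNA gene Mir183 (0.985), among 340 genes. Log2 values of these Epo-like genes lay between 3.06 and 5.40. How much of such low values is transcript is not known. With 4 arrays such correlations are a description of these pools. Of the 10 genes, 1 lies on the chromosome of Usp2, Alas1, 522 measured genes away, and no gene of the lists lies within 100 measured genes of Usp2.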

How the data were processed

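Whole kidney RNA of 2 WT and 2 Usp2-KO pools was measured on 4 Affymetrix whole-transcript arrays, from 300 ng of RNA per pool, per the labels' protocols. The deposited log2 expression values come from RMA, as the submitters' processing notes state. RMA corrects background, makes the arrays' distributions equal and summarises probes, so a shift shared by most genes is removed. Its version and any filter are not given in the sources used here.

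Of 28270 rows, 21780 had 1 gene symbol in the platform's annotation, 1617 several and 4873 none. For each of 19934 genes the row of highest mean was kept, with no filter on signal. The genotype difference was estimated in R 4.3.3 by limma 3.58.1 (lmFit, eBayes, Benjamini-Hochberg), in code tested on simulated data. The prior had 6.87 degrees of freedom. Littermates were kept paired across pools, per the labels, read here as pools of the same number, so a fit with that number as a block was added. Over genes, departures from the genotype means in pools of one number correlated at -0.12.

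The members, the 12 lists and the tests were chosen with earlier results of these data known. Older symbols were matched through RefSeq synonyms, and 14 of 165 list symbols had no row of their own. Besides the members and Usp2, the text names every heme synthesis gene measured and up to 4 genes of smallest p per list. The remaining names were picked with their values in view. The alternatives were the block, crossed pairing, an intensity trend, a robust prior, only genes whose mean was 6 or more, averaging a gene's rows, every row on its own (also with the block), repeated quantile normalization, median centring, a threshold of 0.10 and leaving out single pools. Figures were drawn with matplotlib 3.10.9.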

Additional observations from a re-analysis of the deposited data

How the results depend on the processing

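With 2 pools per genotype, differences of the size seen here are resolved poorly. Over 151 alternative values of the 10 genes, 143 kept their direction and side of the threshold. For direction this count says little. Each of the 10 genes has 1 row, so changes of the fit, the rows included or the threshold left its difference as it was. Only repeated normalization, median centring, leaving out a pool and, for Alas2, subtracting the globin rows could alter it. The replicate block gave 153 genes past the threshold against 1 without it, and 1 of the 10 genes, Alas2 (-0.38, adjusted p = 0.0264), against 0. With the block and every row on its own 10 rows passed, with an intensity trend 18 genes, with a mean log2 value of at least 6 only 7, and at an adjusted p under 0.10 it was 2. With a pool left out 1 or 2 genes passed, and 0 of the 10. The crossed pairing, chosen after seeing the data, gave 1 gene and 0 of the 10. Alas2 was at 0.035 relative to the globin rows. Leaving out 1 pool moved the difference by over 1.5 times in 8 of the 10 genes (not Fech and Tspo2) and in 30 of 40 others named by the rule. Differences without 1 pool ranged from -0.0375 to 0.0185 for Alas1, -0.53 to -0.23 for Alas2, -0.0415 to 0.12 for Hmox1, -0.0585 to 0.28 for Tfrc and -0.31 to 0.064 for Epo. Alas1 was at 0.0023 with arrays centred on their medians, Ppox at 0.0068 and Alad at 0.0088. Without 1 pool, Urod ranged from -0.0215 to 0.0665, Ppox from -0.053 to 0.043, Alad from -0.062 to 0.056, Isca2 from -0.0055 to 0.18, Cd68 from -0.17 to 0.0615, Lum from -0.029 to 0.19, Kdr from -0.18 to 0.0015, Cdh5 from -0.15 to 0.03, Pecam1 from -0.12 to 0.015 and Ehd3 from -0.0835 to 0.0135. The cause of these changes was not tested.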
